A study of Homo sapiens with 12 samples.

Results

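The response to lipopolysaccharide (LPS) of microglia-like cells labelled as MEF2C knockout was described across genes, from 5 of the 12 RNA sequencing libraries of the study. These were 3 libraries of knockout (KO) cells labelled as control and 2 libraries of KO cells given LPS (KO LPS). All cells of the study were induced microglia-like cells (iMGLs), a cultured model of the resident macrophages of the brain, and were differentiated from H1, an established line of human embryonic stem cells. Both groups carried the MEF2C knockout, so LPS was the labelled difference between them. Wild-type (WT) iMGLs labelled as control (3 libraries) or given LPS (2 libraries) were used to ask where the response of KO cells differed, and 2 further libraries of KO cells given LPS with the compound BMS265246 entered the fit only to estimate the spread. The dose of LPS, the time of exposure, the kind of edit and how many knockout clones were used are absent from the labels at hand. Replicates are labelled as biological, but nothing says which steps were repeated, and p-values measure the spread between these libraries. Of 57992 gene IDs in the count table, 16022 passed the filter on low counts and were tested.

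LPS is a glycolipid of the outer membrane of Gram-negative bacteria. It is presented by CD14 to the receptor pair of TLR4 and MD-2, which signals through MyD88 and IRAK kinases to NF-kB and AP-1, and, after internalisation, through TRIF to interferon regulatory factors. Macrophages and microglia answer with cytokines, chemokines and co-stimulatory molecules, with inhibitors that feed back on the same pathway, with a shift toward glycolysis, and with loss of receptors typical of resting microglia. MEF2C, one of the MEF2 transcription factors, is found in microglia and has been linked to restraint of their inflammatory activation.

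Levels are CPM, counts scaled to library sizes after TMM normalisation. Changes are log2 fold changes ± SE of KO LPS against KO, with p from the quasi-likelihood F test of edgeR after Benjamini-Hochberg adjustment. A gene is said to have risen or fallen where that p was under 0.05. Gene positions follow GENCODE release 29, on GRCh38. Total counts ranged from 13888283 to 17639136 per library, and the level that a count of 0 still allows was 0.154 to 0.236 CPM, from counting error alone. Because these are bulk cultures, fewer cells of a type and less RNA per cell cannot be told apart.

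The pair of KO LPS libraries differed more than any other pair of replicates in the study. Between them 65 genes were more than 2-fold apart, against 2 to 11 genes in the other 8 pairs, and a chi-square test of their counts gave 11.47 per degree of freedom, against 2.07 to 7.18. The difference moved with the base composition of genes. In the fifth of tested genes with the lowest GC content the median log2 difference of KO LPS replicate 2 minus replicate 1 was -0.10, and in the fifth with the highest it was 0.26. Over the same range of GC content the median log2 fold change of KO LPS against KO ran from 0.10 to -0.15, from 0.02 to -0.01 without KO LPS replicate 1, and from 0.16 to -0.32 without replicate 2. Small changes of GC-rich and GC-poor genes therefore rest partly on which KO LPS library is used, and its part in them was not tested. For 7179 of the 7182 called genes both KO LPS libraries lay on the called side of the KO mean. Genes were called on the mean of these same libraries, so that count is nearly fixed by the call and is no check on it. The 2 groups of libraries did not overlap for 9939 of 16022 genes (62%), which is the background for each statement below that a gene's groups did not overlap.

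MEF2C (ENSG00000081189, chromosome 5, 88717117 to 88904257) was measured at 136, 129 and 135 CPM in the KO libraries and 192, 183 and 177 CPM in the WT libraries. The 3 KO libraries were all lower than the 3 WT libraries, at a log2 fold change of -0.47 ± 0.05, adjusted p = 4.02e-07, and the transcript was still present in cells labelled as knockout. RNA level does not check an edit that leaves the transcript in place. With LPS it read 45.9 and 46.7 CPM in KO cells and 49.5 and 51.5 CPM in WT cells. MEF2C thus fell with LPS in KO cells (log2 fold change -1.52 ± 0.06, adjusted p = 6.61e-15), with no overlap between the groups.

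The labelled cell type was checked against its markers. Of 15 markers of microglia and macrophages, 14 were tested, among them CSF1R, the receptor that sustains microglia, at 1736, 1835 and 1834 CPM in KO and 1652 and 1741 CPM in KO LPS (log2 fold change -0.09 ± 0.05, adjusted p = 0.134), where the ranges overlapped. The remaining marker, CD68, read at most 0.258 CPM in every library of both groups. Summed over the 15 markers the level was 8976 to 9112 CPM in KO and 9178 to 9667 CPM in KO LPS. That sum hides changes of single markers. Of the 14 tested, 5 were higher, 5 lower and 4 not called (2 higher and 8 lower with library size alone). P2RY12 and TREM2 were among the lower ones. PTPRC, named after its values were seen, read 806, 753 and 787 CPM in KO and 1456 and 1304 CPM in KO LPS. Markers of other cells were at mixed levels. The sum of 17 granulocyte and mast cell markers was 1002 to 1043 CPM in KO and 1093 to 1135 CPM in KO LPS. CLC, the galectin of Charcot-Leyden crystals of eosinophils and basophils, made up 435, 411 and 419 CPM of it in KO and 466 and 438 CPM in KO LPS. HDC, which makes histamine, went from 172, 173 and 177 to 234 and 225 CPM (log2 fold change 0.40 ± 0.06, adjusted p = 9.22e-06), but was not called with library size alone (0.15, adjusted p = 0.0591). The mast cell protease CPA3 read 187, 171 and 167 CPM in KO and 212 and 186 CPM in KO LPS. Of 12 tested markers of that list 3 were higher, 2 lower and 7 not called (none higher and 3 lower with library size alone), while the neutrophil granule gene ELANE was at 0 in all 5 libraries. GATA2, a factor of progenitors and mast cells, read 133, 149 and 139.9 CPM in KO and 149.7 and 194 CPM in KO LPS (0.29 ± 0.12, adjusted p = 0.062). CLC, CPA3 and GATA2 were named after their values were seen. The sum of 12 lymphocyte markers was 288 to 305 CPM in KO and 2438 to 2463 CPM in KO LPS, of which IL7R, the interleukin-7 receptor that activated myeloid cells also express, made 270.3, 268 and 286 and 2436 and 2405 CPM. The defining markers of T and B cells were absent or nearly so. CD3D read at most 0.205 CPM and MS4A1 was at 0 in all 5 libraries. The sum of 10 endothelial markers went from 561 to 595 CPM to 309 to 345 CPM, mostly PECAM1, an adhesion molecule of endothelium and leukocytes (-0.83 ± 0.06). The sum of 11 astrocyte and oligodendrocyte markers was 744 to 797 CPM in KO and 940 to 998 CPM in KO LPS, and of 5 tested genes 3 were higher and 1 lower. SLC1A3, a glutamate transporter, rose from 49.4, 45.6 and 52.7 to 281 and 266 CPM (log2 fold change 2.47 ± 0.07, adjusted p = 1.65e-18). OLIG2, a factor of the oligodendrocyte lineage, rose from 3.997, 4.75 and 3.87 to 15.3 and 16.4 CPM (log2 fold change 1.91 ± 0.14, adjusted p = 8.75e-11). OLIG1, its relative, rose too (1.19 ± 0.19, adjusted p = 3.9e-05), MBP, the gene of myelin basic protein, was lower (-0.96 ± 0.07, adjusted p = 5.53e-11), and S100B was not called (0.06 ± 0.06, adjusted p = 0.489); OLIG1 and S100B were named after their values were seen. Other defining markers of these cells were absent or nearly so, with GFAP at most 0.43 CPM and AQP4, MOG and SOX10 at 0 in all 5 libraries. The sum of 10 markers of pluripotent cells was 55.5 to 57.2 CPM in KO and 41.7 to 49.3 CPM in KO LPS. LIN28B, named after its values were seen, made 52.1, 49.9 and 50.7 and 45.5 and 37.7 CPM of it. Of 3 tested markers of that list 2 were lower and 1 not called, while NANOG was at 0 in all 5 libraries. The part of other cells in the changes below was not tested beyond these values.

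LPS changed the transcriptome of KO cells widely and, with TMM scaling, more strongly upward than downward. The inflammatory genes IL1B, CXCL8, SOD2 and NAMPT rose by 4.94 to 5.26 log2 units and CCL20, PTX3, TNFAIP6, CCL4 and IL6 by 6.49 to 7.83, while FFAR4, PDK4 and CABLES1 fell by 5.18, 4.43 and 3.44. Of 16022 genes, 7182 (44.8%) were called, 3927 (24.5%) higher and 3255 (20.3%) lower. These shares are the background for each count of called list members, above and below. At least 2-fold higher were 1040 (6.49%) and at least 2-fold lower 750 (4.68%), at least 4-fold higher 402 (2.51%) and at least 4-fold lower 124 (0.774%), and at least 16-fold higher 94 (0.587%) and at least 16-fold lower 9 (0.0562%). These strong changes also shifted the make-up of the libraries. The 402 genes at least 4-fold higher took 0.878% to 0.903% of all counts in the KO libraries and 7.01% and 7.16% in the KO LPS libraries, while the 124 at least 4-fold lower went from 0.117% to 0.119% down to 0.0177% and 0.0197%. The split between higher and lower depends on scaling. With library size alone in place of TMM all log2 fold changes moved by a median of -0.25, and 2196 genes were called higher against 6401 lower. Among changes of at least 2-fold, 769 were then higher and 1441 lower. An offset for GC content fitted per library gave 3628 higher and 4404 lower, and at least 2-fold 979 higher and 854 lower.

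**Figure D1:**
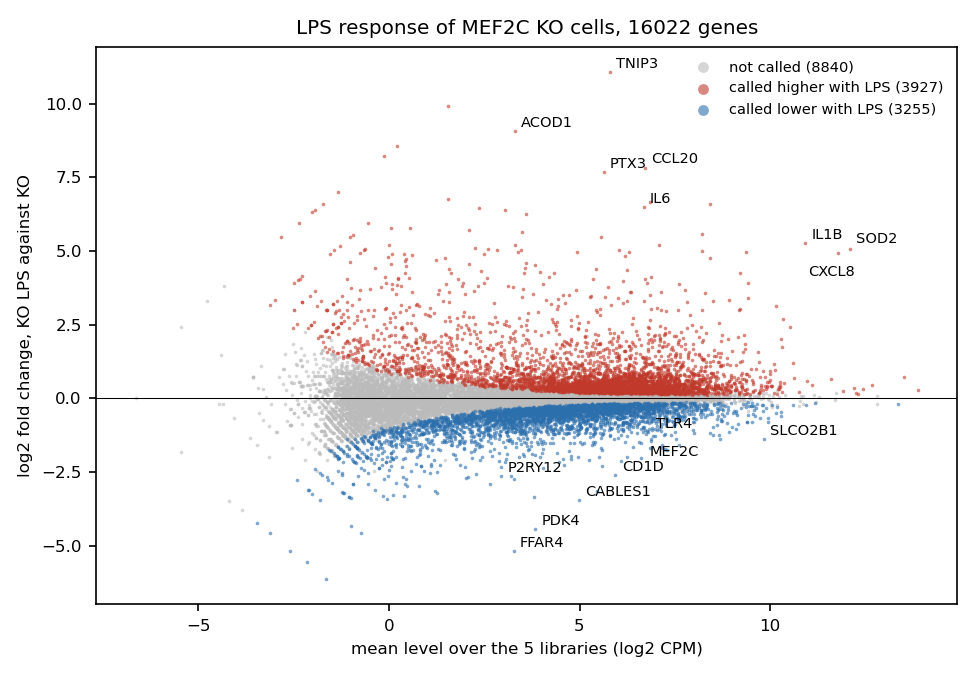
Log2 fold change of KO LPS against KO (vertical axis) by mean level over the 5 libraries (horizontal axis, log2 CPM), 1 point per tested gene. Red points are the 3927 genes called higher, blue points the 3255 called lower and grey points those not called, and the upper side holds the longer tail, with TNIP3, ACOD1, CCL20 and PTX3 at its top.

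Genes that sense LPS and carry its signal changed in both directions. TLR4, the signalling receptor for LPS, read 137, 144 and 144 CPM in KO and 68.9 and 58.7 CPM in KO LPS (log2 fold change -1.15 ± 0.08, adjusted p = 5.65e-11). The LPS libraries were the lower ones without overlap. Other receptors of the family fell further. CD180, a TLR4-like receptor that restrains or modifies LPS signalling, went from 48.9, 42.00 and 42.1 to 13.5 and 8.88 CPM (log2 fold change -1.98 ± 0.13, adjusted p = 2.14e-09). TLR3, the endosomal sensor of double-stranded RNA, went from 3.67, 3.52 and 3.49 to 0.515 and 0.273 CPM (log2 fold change -3.14 ± 0.46, adjusted p = 4.3e-07). TLR8, an endosomal sensor of single-stranded RNA, rose instead, from 146, 139 and 144 to 552 and 516 CPM (log2 fold change 1.90 ± 0.06, adjusted p = 2.11e-17). Of the IRAK family next in the pathway, IRAK2 and IRAK3 rose. IRAK2 went from 11.7, 12.2 and 10.4 to 89.9 and 91.3 CPM (log2 fold change 2.99 ± 0.08, adjusted p = 6.36e-19). IRAK3, the pseudokinase also known as IRAK-M that dampens TLR signalling, went from 121, 118 and 127 to 272 and 259.9 CPM (log2 fold change 1.12 ± 0.06, adjusted p = 6.58e-13). Most of the pathway changed less than 2-fold. Of 28 tested genes of 30 listed for LPS sensing and TLR signalling, 16 were higher and 7 lower, with a median log2 fold change of 0.24, against -0.00 over all genes tested. With library size alone that median was -0.01, with 10 higher and 10 lower. Not called were LY96 (the MD-2 gene), TLR7, IRAK4, MAP3K7 and IKBKB, named here after their values were seen.

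NF-kB genes rose throughout. This transcription factor family is held in the cytoplasm by inhibitors that are themselves its targets, and all 21 listed subunits, inhibitors and survival targets passed the filter and were called higher, 15 of them at least 2-fold, with a median of 1.92, where 24.5% of all genes were called higher. With library size alone 20 of 21 were still called higher and none lower. NFKBIA (ENSG00000100906, chromosome 14, 35401511 to 35404749), which encodes the inhibitor IkB-alpha, read 132, 139 and 139 CPM in KO and 760.3 and 834 CPM in KO LPS (log2 fold change 2.54 ± 0.06, adjusted p = 2.18e-19). TNFAIP3 (ENSG00000118503, chromosome 6, 137867188 to 137883312), which encodes the ubiquitin-editing inhibitor A20, read 75.9, 80.4 and 81.4 CPM and 774 and 796 CPM (log2 fold change 3.31 ± 0.05, adjusted p = 7.83e-23). Neither gene's groups overlapped. TNIP3 (ENSG00000050730, chromosome 4, 121131408 to 121227466), an A20-binding inhibitor, was nearly silent without LPS, with 3 counts in the 3 KO libraries together, and read 142 and 137 CPM with LPS. The ratio of its levels was 2424-fold (95% counting interval 829 to 11760.0), and its adjusted p was 1.73e-22.

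The promoters of 6 of these NF-kB-linked and inflammatory genes are shown because each holds the kappa B consensus, the site bound by NF-kB dimers, close to the start of the gene. The sequences are the 200 bases before the gene's start in RefSeq on GRCh38.p14, written 5′ to 3′ along the strand of the gene, and capitals mark a match to the consensus on either strand. RefSeq's start can differ from the GENCODE boundary given with a gene.
NFKBIA (chr14:35404750-35404949, minus strand): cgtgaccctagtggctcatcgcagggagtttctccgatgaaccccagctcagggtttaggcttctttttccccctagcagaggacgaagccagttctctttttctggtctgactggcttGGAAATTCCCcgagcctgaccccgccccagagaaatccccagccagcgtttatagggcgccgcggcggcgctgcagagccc
TNFAIP3 (chr6:137867059-137867258, plus strand): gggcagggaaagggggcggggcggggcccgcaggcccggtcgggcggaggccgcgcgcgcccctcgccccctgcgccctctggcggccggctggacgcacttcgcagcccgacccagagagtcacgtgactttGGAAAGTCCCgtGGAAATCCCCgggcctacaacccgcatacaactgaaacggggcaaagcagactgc
TNIP3 (chr4:121227484-121227683, minus strand): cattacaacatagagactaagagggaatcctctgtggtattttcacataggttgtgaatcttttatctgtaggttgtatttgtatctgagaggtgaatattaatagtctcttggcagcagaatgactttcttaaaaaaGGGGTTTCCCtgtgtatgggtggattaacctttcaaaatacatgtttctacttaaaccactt
IL6 (chr7:22727000-22727199, plus strand): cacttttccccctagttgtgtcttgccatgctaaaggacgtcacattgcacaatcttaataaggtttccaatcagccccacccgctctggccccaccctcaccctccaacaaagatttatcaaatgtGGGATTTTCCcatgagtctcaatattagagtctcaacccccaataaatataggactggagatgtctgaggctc
CCL20 (chr2:227813642-227813841, plus strand): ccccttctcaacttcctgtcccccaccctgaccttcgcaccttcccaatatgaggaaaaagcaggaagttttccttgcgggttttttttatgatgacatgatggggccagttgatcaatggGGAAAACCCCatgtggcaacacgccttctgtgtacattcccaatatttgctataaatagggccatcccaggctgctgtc
CXCL10 (chr4:76023498-76023697, minus strand): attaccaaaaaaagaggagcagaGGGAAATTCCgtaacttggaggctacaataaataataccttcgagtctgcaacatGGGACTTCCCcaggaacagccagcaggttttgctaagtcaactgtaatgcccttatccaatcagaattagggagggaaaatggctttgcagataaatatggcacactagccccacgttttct
Matches began 81 bases before the start in NFKBIA, 67 and 55 in TNFAIP3, 62 in TNIP3, 73 in IL6, 79 in CCL20, and 177 and 122 in CXCL10. A match is a string of letters and not evidence of binding, which was not measured.

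Among cytokines, interleukin-1, interleukin-6 and TNF rose together. IL1B (ENSG00000125538, chromosome 2, 112829751 to 112836903), the gene for interleukin-1 beta, read 130.1, 118 and 117 CPM in the KO libraries and 4683 and 4607 CPM in the KO LPS libraries (log2 fold change 5.26 ± 0.06, adjusted p = 6.67e-25). IL1A, for interleukin-1 alpha, read 22.5, 21.8 and 21.8 and 741 and 676 CPM (log2 fold change 5.01 ± 0.07, adjusted p = 2.49e-23). The KO LPS pair lay far above all 3 KO libraries for both genes. IL6 (ENSG00000136244, chromosome 7, 22725884 to 22732002), which drives the acute-phase response, went from 3.03, 2.904 and 2.47 to 257 and 247 CPM (log2 fold change 6.49 ± 0.12, adjusted p = 4.84e-23). TNF (ENSG00000232810, chromosome 6, 31575567 to 31578336), the gene for tumour necrosis factor, went from 4.19, 5.58 and 5.75 to 44.1 and 48.7 CPM (log2 fold change 3.15 ± 0.14, adjusted p = 1.26e-14). TNFSF15, a related ligand that co-stimulates T cells, went from 27.7, 28.3 and 28.7 to 169.6 and 158 CPM (log2 fold change 2.54 ± 0.08, adjusted p = 8.67e-17). The KO LPS libraries again lay above all KO libraries. IL12B, the subunit shared by interleukins 12 and 23, had no count in any KO library and read 2.96 and 2.73 CPM with LPS, a level at least 14.7-fold higher against the limit of 3 counts in a KO library (adjusted p = 4.14e-09). Of 16 tested pro-inflammatory cytokines of 21 listed, 15 were higher, and TNFSF14, the ligand LIGHT, was lower (31.7, 30.8 and 32.97 to 14.2 and 17.4 CPM, -1.01 ± 0.10, adjusted p = 1.35e-08). Their median was 2.35, and was 2.35 too with IL12B set at its bound. In the interleukin-1 family, 9 of 13 tested genes of 18 listed were higher, with a median of 0.64, and IL18BP, the decoy receptor of interleukin-18, was lower (-0.55 ± 0.09, adjusted p = 2.11e-05). IL33, IL1R1 and IL1R2, named after their values were seen, were not called.

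Brakes on this response rose as well. IL10, the main anti-inflammatory cytokine of macrophages, went from 13.7, 9.94 and 10.6 to 44.7 and 42.4 CPM (log2 fold change 1.94 ± 0.11, adjusted p = 8.18e-13). PTGER4, a receptor through which prostaglandin E2 lowers TNF production, went from 19.1, 21.8 and 21.3 to 97.2 and 115 CPM (log2 fold change 2.35 ± 0.09, adjusted p = 4.73e-16). ZC3H12C, of the Regnase family of RNA-degrading proteins, went from 13.1, 12.96 and 12.8 to 50.4 and 43.5 CPM (log2 fold change 1.86 ± 0.09, adjusted p = 2.72e-14). In none of the 3 did the groups overlap. Of 25 anti-inflammatory and feedback genes, all tested, 17 were higher and 4 lower, with a median of 0.54. The lower ones were TGFBR2, a receptor for TGF-beta, TSC22D3, the glucocorticoid-induced leucine zipper, and, named after their values were seen, TGFBR1 and SOCS2.

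**Figure D2:**
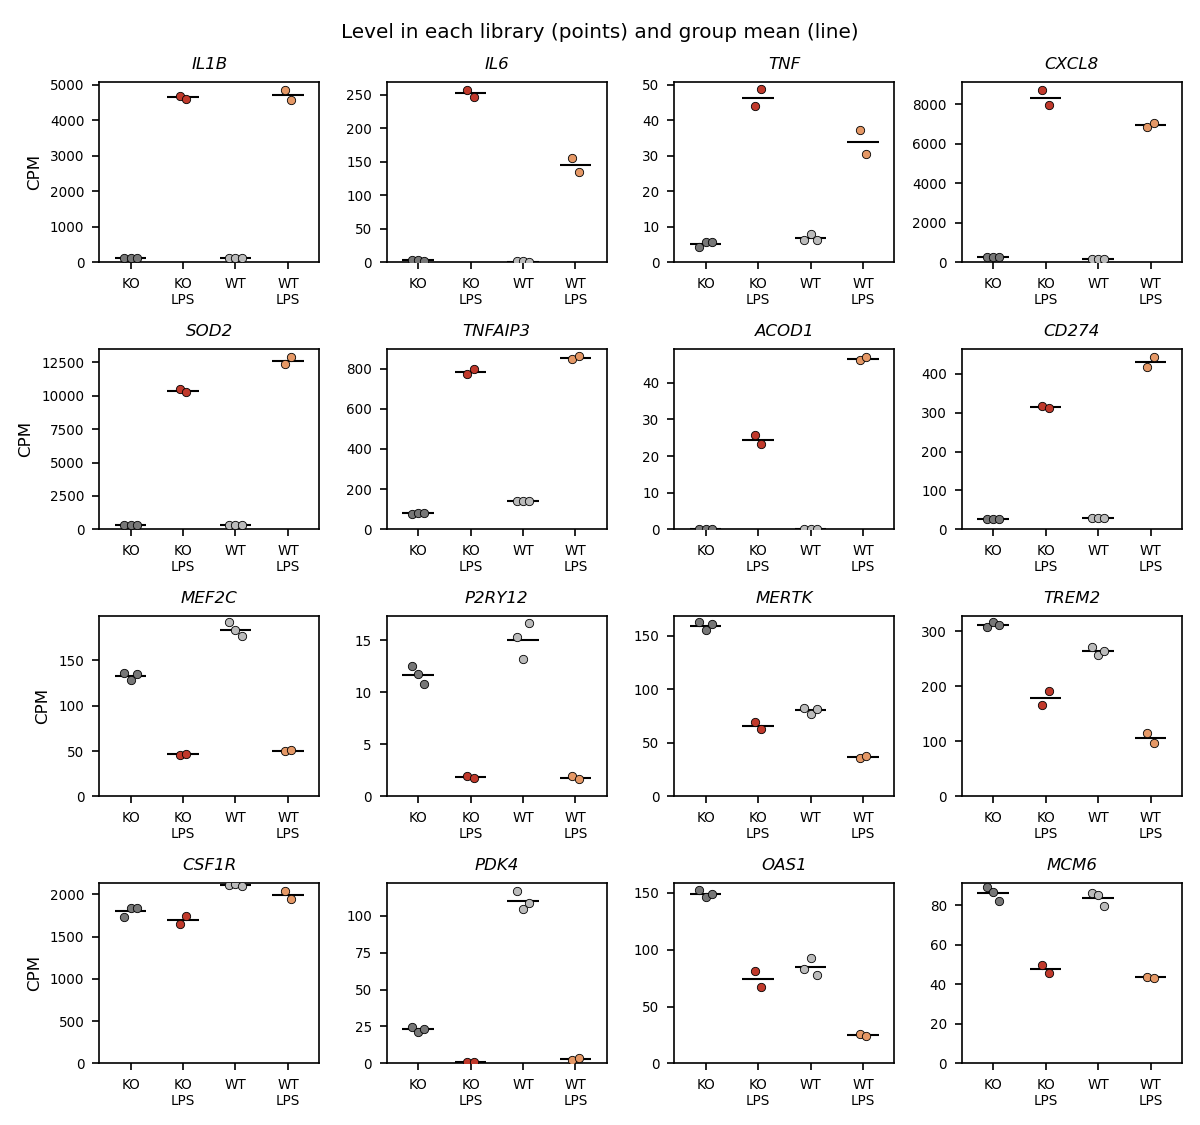
Level in CPM (vertical axis, linear, starting at 0) of 16 genes in each library (points) with the group mean (line), for KO, KO LPS, WT and WT LPS. For IL1B, IL6, TNF, CXCL8, SOD2, TNFAIP3, ACOD1 and CD274 both KO LPS points lie above all KO points, for MEF2C, P2RY12, MERTK, TREM2, PDK4, OAS1 and MCM6 below them, and for CSF1R the points overlap.

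Chemokines, the ligands that attract leukocytes, had the highest median of the gene lists. CCL20 (ENSG00000115009, chromosome 2, 227805739 to 227817564), which attracts lymphocytes and dendritic cells through CCR6, went from 1.29, 0.949 and 1.18 CPM to 265 and 256 CPM (log2 fold change 7.83 ± 0.16, adjusted p = 4.46e-24). CXCL8 (ENSG00000169429, chromosome 4, 73740506 to 73743716), interleukin-8, which attracts neutrophils, went from 293, 257 and 265 to 8712 and 7927 CPM (log2 fold change 4.94 ± 0.06, adjusted p = 2.42e-19), and the related CXCL5 from 6.77, 6.26 and 5.37 to 185 and 162 CPM (log2 fold change 4.83 ± 0.10, adjusted p = 4.96e-21). The 2 groups were separated widely in each of these. CCL2, which attracts monocytes, already stood at 415, 414 and 404 CPM without LPS and reached 2683 and 2596 CPM (log2 fold change 2.68 ± 0.06, adjusted p = 8.25e-18). CCL4, the macrophage inflammatory protein 1-beta gene, went from 8.77, 9.103 and 8.16 to 848 and 850.1 CPM (log2 fold change 6.61 ± 0.11, adjusted p = 6.84e-16), a value made uncertain by the near-identical gene CCL4L2. CXCL10, which is induced by interferons and attracts T cells, went from 1.29, 2.35 and 1.77 to 36.2 and 35.9 CPM (log2 fold change 4.30 ± 0.50, adjusted p = 5.76e-05), with a larger SE than its neighbours. Chemokines thus rose from low and from high starting levels. Of 29 tested chemokines of 33 listed, 24 were higher, with a median of 3.67 (3.62 with a gene without counts in 1 group set at its bound), and only CCL24, an eotaxin, was lower among the listed (180.4, 172 and 176 to 128 and 126 CPM, -0.47 ± 0.09, adjusted p = 0.000201). CX3CL1, CXCL12 and PPBP were not called, and CXCL13 had no count in either group; these were named after their values were seen.

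Receptors for chemoattractants split. The formyl peptide receptors, which detect bacterial and mitochondrial peptides, rose, FPR2 from 27.1, 26.7 and 23.9 to 177 and 168 CPM (log2 fold change 2.74 ± 0.07, adjusted p = 8.65e-19) and FPR1 from 93.4, 90.3 and 93.5 to 383 and 384 CPM (log2 fold change 2.05 ± 0.06, adjusted p = 3.78e-18). ACKR3, a scavenging receptor for CXCL12, went from 1.03, 0.614 and 0.805 to 26.5 and 26.4 CPM (log2 fold change 5.02 ± 0.26, adjusted p = 1.92e-15). CX3CR1, the microglial receptor for fractalkine, rose modestly, from 56.9, 55.2 and 55.5 to 86.5 and 83.4 CPM (log2 fold change 0.61 ± 0.07, adjusted p = 1.01e-07). These 4 receptors were higher without overlap. CXCR2, a receptor for CXCL8, fell, from 23.98, 19.3 and 20.8 to 8.05 and 7.31 CPM (log2 fold change -1.47 ± 0.13, adjusted p = 2.07e-09), with both LPS libraries lowest. All 20 listed receptors were tested, 12 were higher and 6 lower, and the median was 0.53.

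Type I interferon-stimulated genes, the antiviral effectors switched on by interferon alpha and beta, were mostly lower with LPS. OAS1, a sensor of double-stranded RNA, went from 153, 147 and 149 to 81.04 and 67.3 CPM (log2 fold change -1.01 ± 0.08, adjusted p = 9.62e-10). HERC5, a ligase that attaches ISG15, went from 109, 115 and 113 to 62.4 and 60.7 CPM (log2 fold change -0.87 ± 0.07, adjusted p = 6.72e-10). Both LPS libraries lay below all 3 KO libraries for the pair. ISG15 itself read 142, 175 and 156 and 88.4 and 119 CPM (-0.61 ± 0.21, adjusted p = 0.0556) and was not called, although the groups did not overlap. Without KO LPS replicate 2 its adjusted p was 0.0474. Of 36 tested genes of 37 listed, 23 were lower (20.3% of all genes were), 1 higher and 12 not called, with a median of -0.32, and 28 were lower and none higher with library size alone. The higher one was IFIH1, the RNA sensor MDA5, at 112, 114 and 110.1 and 137 and 131 CPM (0.26 ± 0.06, adjusted p = 0.00185). It was not called without KO LPS replicate 1 (0.19, adjusted p = 0.0603). IFNB1, the gene for interferon beta, was named after its values were seen and stayed under the filter, with 0, 5 and 4 counts in KO and 7 and 4 in KO LPS.

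HERC5 and ISG15 are shown as examples of promoters with the core of the interferon-stimulated response element (ISRE), searched on both strands as GAAA, any 2 bases and GAAA, and marked in capitals. They are drawn from the same RefSeq table, as the 200 bases before the start.
HERC5 (chr4:88456919-88457118, plus strand): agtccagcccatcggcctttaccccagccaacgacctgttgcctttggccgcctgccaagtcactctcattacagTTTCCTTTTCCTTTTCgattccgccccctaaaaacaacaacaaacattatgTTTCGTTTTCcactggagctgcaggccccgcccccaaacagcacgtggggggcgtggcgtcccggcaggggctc
ISG15 (chr1:1013297-1013496, plus strand): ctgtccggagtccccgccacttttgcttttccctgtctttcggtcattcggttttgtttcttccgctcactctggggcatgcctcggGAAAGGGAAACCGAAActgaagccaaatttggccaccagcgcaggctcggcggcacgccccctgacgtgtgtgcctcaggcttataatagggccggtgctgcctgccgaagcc
Matches, some of them overlapping, began 125, 119 and 74 bases before the start in HERC5 and 113 and 107 bases before it in ISG15. In the 28 matched promoters of the interferon-stimulated list the core was present in 19 (67.9%), against 283 of the 11304 promoters matched to tested genes (2.50%) and 3.07% of the 27305 promoters in the table.

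Genes usually grouped under interferon gamma rose more often than they fell. GBP2, a guanylate-binding protein of cell-autonomous immunity, went from 53.3, 50.8 and 55.5 to 214 and 212 CPM (log2 fold change 2.002 ± 0.06, adjusted p = 7.99e-18). IDO1, which starts the breakdown of tryptophan, went from 0.258, 0.558 and 0.161 to 7.73 and 6.29 CPM (log2 fold change 4.39 ± 0.40, adjusted p = 4.23e-11). CD274, the inhibitory ligand PD-L1, went from 25.8, 25.5 and 25.6 to 316 and 312 CPM (log2 fold change 3.61 ± 0.06, adjusted p = 3.3e-22). In these 3 genes the LPS libraries were higher without overlap. Of 23 tested genes of 24 listed, 15 were higher, 1 lower and 7 not called, with a median of 0.83.

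Antigen presentation changed in parts. CIITA, the transactivator on which MHC class II expression depends, fell from 37.6, 40.5 and 39.8 to 13.5 and 13.8 CPM (log2 fold change -1.53 ± 0.09, adjusted p = 8.55e-13). HLA-DMB, a subunit of the peptide-loading chaperone, went from 204, 191 and 188 to 86.1 and 76.3 CPM (log2 fold change -1.26 ± 0.07, adjusted p = 4.87e-13). HLA-DRA, the alpha chain of the class II molecule HLA-DR, rose from 519, 481 and 481 to 737 and 725 CPM (log2 fold change 0.57 ± 0.05, adjusted p = 7.03e-09). Class II genes therefore did not move as 1 group. Of 20 tested of 21 listed, 8 were higher and 5 lower, with a median of 0.10 (-0.15 with library size alone). In class I, the peptide transporter TAP1 went from 80.96, 82.3 and 82.1 to 132 and 164 CPM (log2 fold change 0.86 ± 0.09, adjusted p = 2.3e-07), and 11 of 21 tested genes of 22 listed were higher and 4 lower, with a median of 0.17 (-0.08 with library size alone, with 4 higher and 9 lower). All 5 CD1 genes, which present lipids, were lower, with a median of -1.10. CD1D (ENSG00000158473, chromosome 1, 158179947 to 158184896), which presents lipids to natural killer T cells, went from 95.8, 89.5 and 91.7 to 14.04 and 16.4 CPM (log2 fold change -2.60 ± 0.08, adjusted p = 3.97e-17). Reads of HLA genes can be shared between near-identical copies, which makes their counts uncertain.

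Co-stimulatory and maturation genes mostly rose. CD40, which receives help from T cells, went from 132, 136 and 128 to 382 and 401 CPM (log2 fold change 1.57 ± 0.06, adjusted p = 6.84e-16). SLAMF7, an adhesion receptor of activated leukocytes, went from 30.5, 27.6 and 32.00 to 842 and 793 CPM (log2 fold change 4.77 ± 0.06, adjusted p = 4.46e-24). CD86, a ligand of CD28, fell from 347, 329 and 339 to 226 and 208 CPM (log2 fold change -0.64 ± 0.06, adjusted p = 4.96e-09). Each of the 3 separated the groups. All 19 tested genes of 20 listed were called, 17 higher and 2 lower, with a median of 1.92, and the other lower gene was TNFSF4, the OX40 ligand (-0.69 ± 0.18, adjusted p = 0.00245).

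Genes of the inflammasome, the complex that activates interleukin-1 beta, differed from each other. CASP5, a caspase that binds cytosolic LPS, went from 4.38, 5.14 and 3.76 to 42.1 and 39.97 CPM (log2 fold change 3.21 ± 0.14, adjusted p = 2.77e-15). P2RX7, the ATP-gated channel that triggers NLRP3, went from 34.8, 34.01 and 34.95 to 169 and 169.9 CPM (log2 fold change 2.29 ± 0.06, adjusted p = 1.88e-18). NLRP3 itself read 101, 97.01 and 98.9 CPM and 118 and 113 CPM (log2 fold change 0.23 ± 0.06, adjusted p = 0.00201). Its groups did not overlap, but the rise was small. It was lost without KO LPS replicate 1 (0.16, adjusted p = 0.0797) and changed sign with library size alone (-0.03, adjusted p = 0.723). Of 18 tested genes of 20 listed, 8 were higher and 6 lower, with a median of 0.14 (-0.11 with library size alone).

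Genes typical of resting microglia were more often lower than higher. P2RY12 (ENSG00000169313, chromosome 3, 151337380 to 151384812), the ADP receptor that guides microglial processes, went from 12.5, 11.7 and 10.7 to 1.93 and 1.78 CPM (log2 fold change -2.64 ± 0.20, adjusted p = 4.72e-11). ADORA3, the adenosine A3 receptor, went from 33.4, 30.2 and 31.7 to 7.99 and 6.22 CPM (log2 fold change -2.16 ± 0.12, adjusted p = 5.28e-13). Both are sensors of extracellular purines. MERTK, the receptor by which microglia recognise apoptotic cells, went from 163, 155 and 161 to 69.2 and 62.6 CPM (log2 fold change -1.28 ± 0.06, adjusted p = 1.67e-13). SLCO2B1, an organic anion transporter, went from 1189, 1239.6 and 1226 to 453 and 477 CPM (log2 fold change -1.39 ± 0.05, adjusted p = 5.83e-16). The LPS libraries were the lowest for all 4. GPR84, a receptor for medium-chain fatty acids that stands in the same list, rose from 103, 107 and 103 to 512 and 498 CPM (log2 fold change 2.28 ± 0.06, adjusted p = 1.78e-18). Of 29 tested genes of 31 listed, 17 were lower and 6 higher, with a median of -0.33. Besides GPR84 and CX3CR1, the higher ones were TMEM119, SIGLEC10, P2RX4 and P2RY6, of which all but P2RX4 are named after their values were seen.

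Genes associated with microglia in disease went both ways. TREM2, the lipid-sensing receptor required for that state, fell from 307, 317 and 311 to 166 and 191 CPM (log2 fold change -0.81 ± 0.07, adjusted p = 1.84e-09). AXL, a receptor related to MERTK, went from 139, 134 and 138 to 77.8 and 77.1 CPM (log2 fold change -0.82 ± 0.06, adjusted p = 1.07e-10). SPP1, osteopontin, rose from 9592, 9324 and 8996 to 15841 and 14906 CPM (log2 fold change 0.72 ± 0.08, adjusted p = 9.72e-06). SPP1 thus went against TREM2 and AXL, and so did enzymes of lipid metabolism. LPL, lipoprotein lipase, went from 348, 348 and 346 to 1052 and 1005 CPM (log2 fold change 1.57 ± 0.05, adjusted p = 4.92e-17). CH25H, which makes 25-hydroxycholesterol, went from 5.74, 5.53 and 5.69 to 48.1 and 58.3 CPM (log2 fold change 3.23 ± 0.14, adjusted p = 3.59e-14). These 5 separated the groups. APOE, the lipid carrier, read 6717, 8321 and 7546 CPM in KO but 4859 and 8451 CPM in KO LPS replicates 1 and 2 (-0.18 ± 0.26, adjusted p = 0.631), so that its LPS libraries lay on either side of the KO libraries. Of 24 tested genes of 25 listed, 12 were higher and 6 lower, with a median of 0.17 (-0.09 with library size alone, with 9 in each direction). The mannose receptor gene MRC1 fell from 1000.4, 989.9 and 1008 to 676 and 596 CPM (log2 fold change -0.65 ± 0.06, adjusted p = 2.14e-09), within a phagocytosis and lysosome list of 35 tested genes that had 13 higher and 13 lower (8 and 20 with library size alone, 11 and 16 with the GC offset). C3, the central complement component, rose from 825, 846 and 831 to 1321 and 1272 CPM (log2 fold change 0.64 ± 0.04, adjusted p = 5.53e-11), within a complement list in which 6 of 20 tested genes of 24 listed were higher and 3 lower (5 and 10 with library size alone). Over all genes 24.5% were higher and 20.3% lower, so the complement counts stand near the background.

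Of 26 transcription factors of the myeloid lineage, all tested, 11 were higher, 7 lower and 8 not called, with a median of 0.43. CEBPA, which specifies myeloid cells, fell from 32.2, 44.3 and 34.7 to 9.41 and 12.4 CPM (log2 fold change -1.77 ± 0.17, adjusted p = 5.15e-07), and NR1H3, the oxysterol receptor LXR-alpha, rose from 41.3, 39.9 and 39.1 to 121 and 124 CPM (log2 fold change 1.61 ± 0.06, adjusted p = 2.35e-15). MEF2A, the relative of MEF2C, fell from 172, 167 and 167 to 130.3 and 124 CPM (log2 fold change -0.40 ± 0.06, adjusted p = 1.66e-05). Of 9 tested genes of 11 listed for the MEF2 family and class IIa histone deacetylases, which repress MEF2 targets, 3 were lower (MEF2C, MEF2A and HDAC5) and 4 higher (HDAC4, HDAC7, HDAC9 and NR4A1, the latter pair and HDAC5 named after their values were seen). NR4A1 stands in that list but is neither a MEF2 factor nor a histone deacetylase. HDAC4 (0.44 ± 0.12, adjusted p = 0.00477) was not called without KO LPS replicate 2 (0.33, adjusted p = 0.073), and with library size alone 1 of the 9 was higher and 4 lower. Of the immediate early and AP-1 genes, KLF6 went from 161, 161 and 157 to 449 and 465 CPM (log2 fold change 1.52 ± 0.05, adjusted p = 3.07e-17). ATF3, a stress-induced repressor of cytokine genes, went from 11.9, 11.6 and 12.3 to 34.9 and 34.8 CPM (log2 fold change 1.55 ± 0.08, adjusted p = 5.2e-13). MAFF went from 12.3, 16.8 and 12.5 to 61.1 and 76.3 CPM (log2 fold change 2.30 ± 0.15, adjusted p = 1.49e-07). These 3 were higher without overlap. FOS fell from 415, 345 and 334 to 248 and 219.9 CPM (log2 fold change -0.64 ± 0.13, adjusted p = 0.00346). FOSB, its relative, read 2.97, 2.07 and 1.77 CPM and 2.32 and 2.05 CPM (-0.03 ± 0.27, adjusted p = 0.934), with overlapping groups. The list as a whole leaned upward. In all, 15 of 26 tested genes of 27 listed were higher and 2 lower, with a median of 0.60, and the other lower gene was MAF (-0.25 ± 0.06, adjusted p = 0.00332). MAF was not called without KO LPS replicate 1 (-0.17, adjusted p = 0.064).

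**Figure D3:**
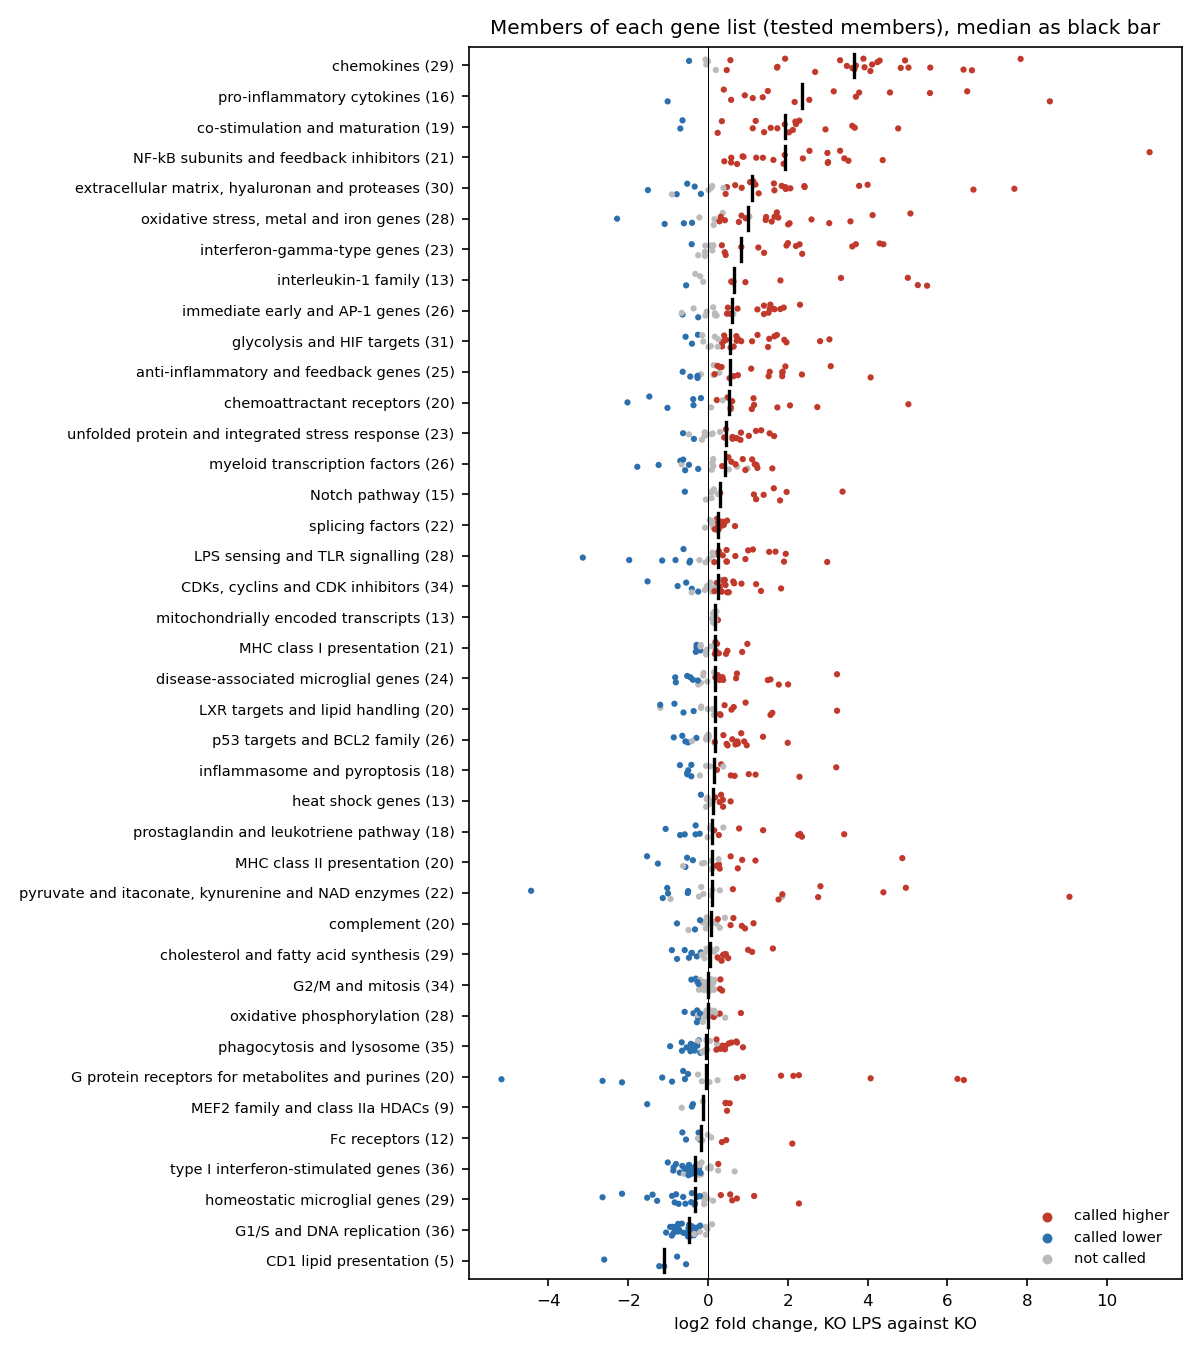
Log2 fold change of KO LPS against KO (horizontal axis) for each tested member of the gene lists (rows, with the number tested), coloured red where called higher, blue where called lower and grey where not called, with the list median as a black bar. Chemokines (3.67), pro-inflammatory cytokines (2.35) and NF-kB genes (1.92) lie at the top, and type I interferon-stimulated genes (-0.32), homeostatic microglial genes (-0.33), G1/S genes (-0.47) and CD1 genes (-1.10) at the bottom.

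Genes of the G1/S transition and DNA replication fell. MCM4 and MCM6, subunits of the replicative helicase, went from 94.05, 96.1 and 96.6 to 52.2 and 52.8 CPM (log2 fold change -0.86 ± 0.06, adjusted p = 1.08e-10) and from 89.3, 86.7 and 82.1 to 49.8 and 45.8 CPM (log2 fold change -0.85 ± 0.07, adjusted p = 9.3e-10). GINS2, a partner of that helicase, went from 15.7, 12.3 and 12.2 to 7.54 and 5.33 CPM (log2 fold change -1.05 ± 0.17, adjusted p = 1.49e-05). The LPS libraries were lower without overlap in the 3 genes. Of 36 genes, all tested, 28 were lower (20.3% of all genes were), none higher and 8 not called, with a median of -0.47. Between 23 and 35 were lower, and none higher, with library size alone, DESeq2, a GC offset or either KO LPS library left out. G2/M and mitosis genes did not follow. MKI67, the proliferation marker Ki-67, read 266, 264 and 277 CPM and 272 and 253 CPM (log2 fold change -0.03 ± 0.08, adjusted p = 0.749), with overlapping ranges, and of 34 tested genes 3 were higher, 4 lower and 27 not called, with a median of 0.00. With library size alone 21 of these were lower and none higher, and with the GC offset 12 and 2.

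CDKs, cyclins and their inhibitors changed in both directions. CDK6, a G1 kinase that also acts as a cofactor of NF-kB, went from 44.2, 46.3 and 47.1 to 122 and 108 CPM (log2 fold change 1.33 ± 0.08, adjusted p = 3.89e-12). CDKN2B, the inhibitor p15, went from 10.6, 10.4 and 9.72 to 31.6 and 41.1 CPM (log2 fold change 1.83 ± 0.11, adjusted p = 7.06e-12). CDKN1A, the inhibitor p21, went from 438, 466 and 458 to 613 and 689.7 CPM (log2 fold change 0.52 ± 0.06, adjusted p = 3.79e-07). The inhibitors thus did not all move alike. CDKN1C, the inhibitor p57, fell from 15.1, 18.7 and 14.8 to 5.86 and 5.47 CPM (log2 fold change -1.52 ± 0.14, adjusted p = 6.54e-09). All 4 separated the groups. CDK2, a kinase inhibited by BMS265246, read 14.6, 15.5 and 15.2 CPM and 20.3 and 17.1 CPM (log2 fold change 0.31 ± 0.11, adjusted p = 0.0306). That call was lost in 9 of the 13 other settings and libraries tried, among them without KO LPS replicate 1 (0.14, adjusted p = 0.472), without KO replicate 1 (0.28, adjusted p = 0.0807) and without KO replicate 3 (0.31, adjusted p = 0.0628). Of 34 tested genes, all of those listed, 18 were higher and 5 lower, with a median of 0.24, but with library size alone 9 were higher and 10 lower, with a median of -0.01.

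Genes of glucose uptake and glycolysis mostly rose. HIF1A, the oxygen-sensing transcription factor that TLR signalling also induces, rose from 529, 488 and 514 to 942 and 877 CPM (log2 fold change 0.83 ± 0.05, adjusted p = 1.56e-11). SLC2A3, a high-affinity glucose transporter, went from 137, 135 and 149.8 to 556 and 544 CPM (log2 fold change 1.97 ± 0.06, adjusted p = 1.3e-17). PFKFB3, which makes the activator of phosphofructokinase, went from 42.7, 41.6 and 42.04 to 128 and 151 CPM (log2 fold change 1.73 ± 0.07, adjusted p = 1.6e-15). Transcripts of all 3 were thus higher. ADM, the vasodilator adrenomedullin and a HIF target, went from 11.02, 12.2 and 12.5 to 85.03 and 112 CPM (log2 fold change 3.04 ± 0.13, adjusted p = 1.41e-10). In each of the 4 the LPS libraries were the highest. Of 31 glycolysis and HIF genes, all tested, 21 were higher and 3 lower (EPAS1, HK3 and, named after its values were seen, HK1), with a median of 0.56. Of 28 nuclear genes of oxidative phosphorylation 3 were higher, 6 lower and 19 not called, with a median of -0.01. With library size alone none was higher and 16 lower, and with the GC offset 2 and 12.

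At the entry to the mitochondrion, PDK4 (ENSG00000004799, chromosome 7, 95583499 to 95596491), a kinase that shuts off pyruvate dehydrogenase, fell from 24.9, 21.1 and 23.3 to 1.22 and 0.888 CPM (log2 fold change -4.43 ± 0.27, adjusted p = 7.74e-15). ACOD1 (ENSG00000102794, chromosome 13, 76948497 to 76958642), which makes the immunometabolite itaconate, had 2 counts in the 3 KO libraries together and read 25.6 and 23.3 CPM with LPS. The ratio of its levels was 638-fold (95% counting interval 176 to 5275), with an adjusted p of 1.4e-15. IDH1, the cytosolic isocitrate dehydrogenase, fell from 639, 599.7 and 612 to 297 and 266 CPM (log2 fold change -1.13 ± 0.06, adjusted p = 3.31e-13). PDK4 and IDH1 were lower and ACOD1 higher, each without overlap. NAMPT, the rate-limiting enzyme of NAD salvage, rose from 51.9, 51.3 and 48.9 to 1599 and 1549.9 CPM (log2 fold change 4.96 ± 0.05, adjusted p = 5.9e-25). KYNU, kynureninase, went from 71.1, 71.4 and 67.8 to 506 and 482 CPM (log2 fold change 2.82 ± 0.06, adjusted p = 1.84e-20). The last pair were higher without overlap. In prostaglandin synthesis PTGS2, the inducible cyclooxygenase, rose from 14.2, 12.1 and 13.3 to 142 and 139 CPM (log2 fold change 3.41 ± 0.10, adjusted p = 1.74e-17), while HPGDS, which makes prostaglandin D2, fell from 93.3, 86.3 and 87.6 to 43.5 and 41.8 CPM (log2 fold change -1.06 ± 0.07, adjusted p = 5.9e-11). LSS, an enzyme of cholesterol synthesis, rose from 69.2, 79.1 and 73.5 to 214 and 243 CPM (log2 fold change 1.63 ± 0.08, adjusted p = 5.35e-13), within a list of 29 tested sterol and fatty acid genes of 31 listed that had 10 higher and 8 lower (5 and 12 with library size alone).

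Genes of oxidative stress and of metal handling mostly rose. SOD2 (ENSG00000112096, chromosome 6, 159669057 to 159745186), the mitochondrial superoxide dismutase and a target of NF-kB, went from 312, 305 and 308 to 10465 and 10294 CPM and had the lowest adjusted p of the tested genes (log2 fold change 5.07 ± 0.04, adjusted p = 8.47e-27). SLC39A8, a zinc importer, went from 63.04, 57.6 and 55.7 to 699 and 694 CPM (log2 fold change 3.57 ± 0.06, adjusted p = 3.83e-22). SLC40A1, ferroportin, the only known iron exporter, fell from 74.4, 67.3 and 71.9 to 14.9 and 14.3 CPM (log2 fold change -2.28 ± 0.09, adjusted p = 4.86e-15). Both transporters separated the groups. CAT, catalase, went from 324, 313 and 316 to 153 and 146 CPM (log2 fold change -1.09 ± 0.05, adjusted p = 2.26e-13). Of 28 tested genes of 33 listed, 19 were higher and 4 lower, with a median of 0.99. GPX1 and GCLC, named after their values were seen, were the other 2 lower ones.

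Genes of the matrix and of hyaluronan binding held several of the steepest rises. PTX3 (ENSG00000163661, chromosome 3, 157436789 to 157443628), a soluble pattern recognition molecule, went from 0.645, 0.391 and 0.752 to 113 and 134 CPM (log2 fold change 7.68 ± 0.26, adjusted p = 4.41e-21), and TNFAIP6 (ENSG00000123610, chromosome 2, 151357592 to 151380048), which cross-links hyaluronan with PTX3 and other partners, from 3.35, 2.57 and 2.63 to 295 and 275 CPM (log2 fold change 6.65 ± 0.11, adjusted p = 4.46e-24). CD44, the hyaluronan receptor, went from 542, 535 and 542 to 2949 and 2829 CPM (log2 fold change 2.42 ± 0.04, adjusted p = 1.06e-21). VCAN, the proteoglycan versican, which is also a marker of monocytes, went from 10.2, 10.8 and 9.396 to 175 and 149.5 CPM (log2 fold change 3.999 ± 0.12, adjusted p = 3.1e-14). All 4 were higher in both LPS libraries. S100A9, another monocyte marker, went from 259, 259 and 255 to 584 and 619 CPM (log2 fold change 1.22 ± 0.06, adjusted p = 2.71e-14). The sum of 18 markers of monocytes and border macrophages stayed between 4069 and 4143 CPM in KO and 4152 and 4183 CPM in KO LPS, with 7 of 18 higher and 6 lower (6 and 9 with library size alone). PTX3, TNFAIP6, CD44 and VCAN were higher without overlap. Of 30 tested matrix genes of 32 listed, 20 were higher and 5 lower, with a median of 1.09. The lower ones were PLAU, FN1 and TGM2, and, named after their values were seen, TIMP2 and SPARC. FN1 (-0.18 ± 0.05, adjusted p = 0.00558) was not called without KO LPS replicate 2 (-0.10, adjusted p = 0.161).

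Receptors for metabolites moved in both directions. HCAR2 and HCAR3, receptors for hydroxy acids, went from 0.516, 0.168 and 0.483 to 28.5 and 31.2 CPM (log2 fold change 6.25 ± 0.41, adjusted p = 4.51e-13) and from 0.0645, 0.503 and 0.107 to 18.6 and 21.9 CPM (log2 fold change 6.41 ± 0.50, adjusted p = 1.21e-13), and since they are near-identical neighbours their counts may be shared. FFAR4 (ENSG00000186188, chromosome 10, 93566665 to 93604480), a receptor for long-chain fatty acids, fell from 14.7, 15.9 and 16.9 to 0.387 and 0.478 CPM (log2 fold change -5.18 ± 0.38, adjusted p = 5.36e-14). HCAR2 and HCAR3 were thus higher, and FFAR4 lower, in both LPS libraries. Of 20 tested receptors for metabolites and purines of 21 listed, 8 were higher and 8 lower, with a median of -0.06. Other steep falls were those of CABLES1 (ENSG00000134508, chromosome 18, 23134564 to 23260467), an adaptor that links CDKs with the kinase ABL, from 50.6, 50.04 and 47.7 to 4.64 and 4.44 CPM (log2 fold change -3.44 ± 0.12, adjusted p = 7.28e-17). KIF26B, an atypical kinesin, went from 65.7, 70.6 and 67.01 to 6.64 and 8.68 CPM (log2 fold change -3.15 ± 0.11, adjusted p = 1.56e-16). PRR15 went from 18.95, 23.8 and 22.8 to 1.74 and 2.53 CPM (log2 fold change -3.36 ± 0.23, adjusted p = 6.99e-12). None of these groups overlapped.

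Most of the response of KO cells was shared with WT cells. The comparison with WT asked whether the change with LPS differed between genotypes, and the test was the genotype by LPS interaction, the change in KO minus the change in WT. In WT LPS against WT 9560 of 16022 genes (59.7%) were called, 28.9% higher and 30.8% lower, and the interaction was called for 1919 (12%), 1027 above 0 and 892 below. Of the 1790 genes (11.2%) that changed at least 2-fold in KO cells, 1581 were called in the same direction in WT cells, 1 in the opposite direction, and 208 were not called there. For 379 of the 1790 (21.2%) the interaction was called, mostly with a smaller change in KO. It lay below 0 for 201 of the risers and above 0 for 46, and above 0 for 123 of the fallers and below 0 for 9. The risers had a median of 1.73 in KO and 1.85 in WT, and the fallers -1.35 and -1.64. Those 1790 genes were chosen by their change in KO, so their counts and medians are descriptions. How many interactions are called depends on single libraries, with 3077 without KO LPS replicate 1, 1162 without KO LPS replicate 2 and 1211 without WT LPS replicate 2.

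**Figure D4:**
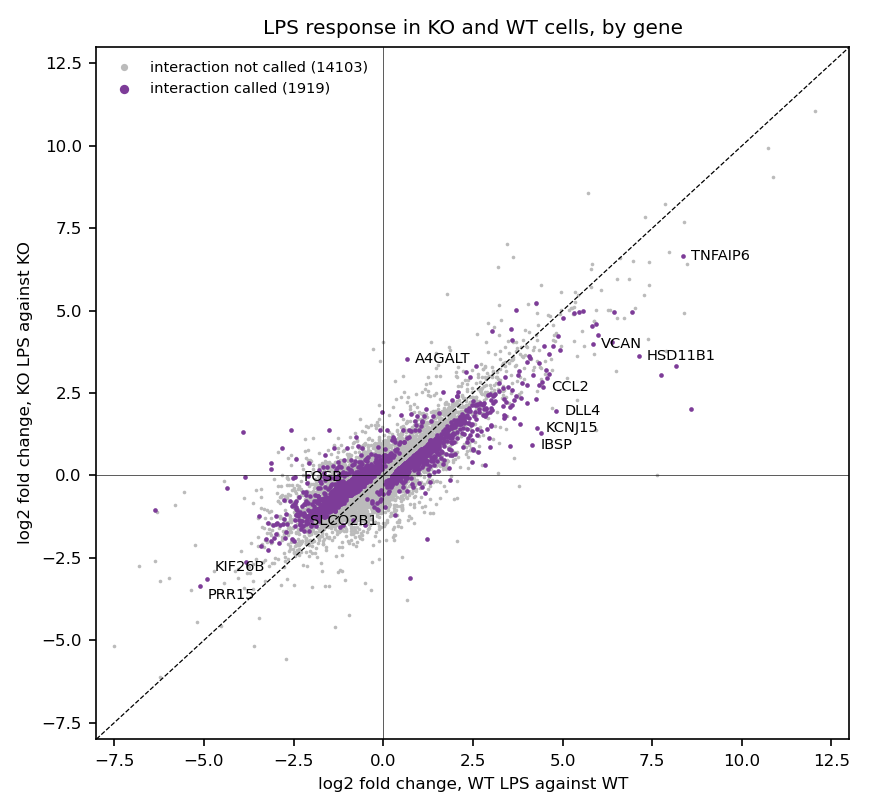
Log2 fold change with LPS in KO cells (vertical axis) against that in WT cells (horizontal axis), 1 point per tested gene, with the line of equal change dashed. Purple points are the 1919 genes with a called interaction, and most of those far from the origin lie closer to 0 in KO than in WT, A4GALT being an exception at 3.54 against 0.66.

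The named genes show the size of these differences. CCL2 changed by 2.68 ± 0.06 in KO and 4.45 ± 0.07 in WT (interaction -1.76 ± 0.09, adjusted p = 5.48e-10), and started from 72.1, 69.97 and 59.2 CPM in the WT libraries against 415, 414 and 404 CPM in KO. TNFAIP6 changed by 6.65 ± 0.11 and 8.35 ± 0.15 (-1.70 ± 0.18, adjusted p = 1.35e-06), FPR2 by 2.74 ± 0.07 and 4.33 ± 0.09 (-1.59 ± 0.12, adjusted p = 1.06e-08), and VCAN by 3.999 ± 0.12 and 5.84 ± 0.15 (-1.84 ± 0.19, adjusted p = 1.2e-05). The rises of CCL2, TNFAIP6, FPR2 and VCAN were thus smaller in KO, in log2 units. CCL2 still read higher with LPS in KO, at 2683 and 2596 CPM against 1528 and 1400 CPM in WT LPS. FPR2 went from 5.78, 5.30 and 4.53 CPM in WT to 104 and 105 CPM in WT LPS, against 177 and 168 CPM in KO LPS. TNFAIP6 read 295 and 275 CPM in KO LPS and 388.6 and 388.6 CPM in WT LPS. The largest negative interactions under the same rule were those of DLL4, KCNJ15 and IBSP. DLL4, a Notch ligand, read 0.774, 0.782 and 0.913 CPM in KO, 2.58 and 3.96 in KO LPS, 0.324, 0.257 and 0.103 in WT and 7.63 and 5.69 in WT LPS (-2.86 ± 0.56, adjusted p = 0.000763). KCNJ15, a potassium channel, read 3.35, 3.24 and 3.54, 9.53 and 8.88, 0.378, 0.308 and 0.514 and 8.695 and 7.25 CPM in the same order (-2.84 ± 0.34, adjusted p = 3.07e-06). IBSP, a bone matrix protein, read 7.67, 6.76 and 6.93, 13.3 and 13.5, 0, 0 and 0.103 and 0.996 and 0.4998 CPM (-3.23 ± 1.06, adjusted p = 0.00553). IBSP had 2 counts in the 3 WT libraries together and 23 in the WT LPS pair, a ratio of levels of 21.3-fold (95% counting interval 5.25 to 186), so its fitted interaction depends on the prior count and has no firm size.

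Larger rises in KO, in log2 units, were seen for TNF, TNFAIP3, NFKBIA and TNFSF15. TNFAIP3 started lower in KO, at 75.9, 80.4 and 81.4 CPM against 142, 142 and 143 CPM in WT. With LPS it read 774 and 796 CPM in KO and 848 and 861 CPM in WT. NFKBIA read 760.3 and 834 CPM in KO LPS and 797 and 735 CPM in WT LPS. TNF read 44.1 and 48.7 CPM in KO LPS against 37.2 and 30.6 CPM in WT LPS, and TNFSF15 169.6 and 158 against 98.7 and 105 CPM. TNF changed by 3.15 ± 0.14 in KO and 2.30 ± 0.13 in WT (interaction 0.85 ± 0.19, adjusted p = 0.00486), TNFAIP3 by 3.31 ± 0.05 and 2.58 ± 0.05 (0.72 ± 0.07, adjusted p = 5.23e-07), NFKBIA by 2.54 ± 0.06 and 2.08 ± 0.06 (0.47 ± 0.08, adjusted p = 0.000791), and TNFSF15 by 2.54 ± 0.08 and 1.67 ± 0.08 (0.87 ± 0.12, adjusted p = 3.39e-05). A4GALT, a glycosyltransferase of glycolipid synthesis, had the largest positive one among genes with at least 5 CPM in 1 group, at 0.516, 0.670 and 0.215 CPM in KO, 5.605 and 5.26 in KO LPS, 4.91, 5.66 and 6.17 in WT and 10.02 and 7.62 in WT LPS (2.88 ± 0.41, adjusted p = 2.04e-05). For IL1B (-0.10 ± 0.08, adjusted p = 0.477), IL6 (-0.46 ± 0.20, adjusted p = 0.142), CCL20 (0.53 ± 0.21, adjusted p = 0.139), SOD2 (-0.16 ± 0.06, adjusted p = 0.0773) and PTGS2 (0.08 ± 0.13, adjusted p = 0.76) the interaction was not called, so a difference within these errors was not detectable.

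Several falls were shallower in KO. KIF26B changed by -3.15 ± 0.11 in KO and -4.93 ± 0.13 in WT (interaction 1.78 ± 0.17, adjusted p = 6.02e-07), CDKN1C by -1.52 ± 0.14 and -3.08 ± 0.18 (1.56 ± 0.23, adjusted p = 7.2e-05), SLCO2B1 by -1.39 ± 0.05 and -2.28 ± 0.05 (0.89 ± 0.07, adjusted p = 3.15e-08), and AXL by -0.82 ± 0.06 and -1.64 ± 0.06 (0.82 ± 0.08, adjusted p = 9.21e-07). Their WT cells reached a lower share of the starting level than their KO cells did. For the type I interferon-stimulated list the interaction was above 0 in 17 of 36 genes and below 0 in none, and the list median was -0.32 in KO and -0.87 in WT, where 30 of 36 were lower against 30.8% of all genes. OAS1 read 82.96, 92.8 and 77.7 CPM in WT and 25.4 and 23.7 CPM in WT LPS (interaction 0.77 ± 0.12, adjusted p = 0.00018). For the NF-kB list 4 of 21 lay above 0 and 1 below, for the chemokines 1 of 29 above and 5 below, for the pro-inflammatory cytokines 5 of 16 above and none below, and for co-stimulation none of 19 above and 7 below. Over all genes 6.41% were called above 0 and 5.57% below.

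Promoter letters were compared between classes of response for the 11304 tested genes with an entry in the RefSeq table, using the 250 bases before the start. The kappa B consensus was present in 52 of 245 promoters of genes at least 4-fold higher (21.2%) and in 16 of 59 of those at least 16-fold higher (27.1%). It was present in 7 of 79 promoters of genes at least 4-fold lower (8.86%), in 631 of 5827 of genes not called (10.8%), and in 1319 of all 11304 (11.7%). Of the lists, 8 of 19 NF-kB promoters (42.1%) and 10 of 22 chemokine promoters (45.5%) held it. In lists that mostly fell, it was in 7 of 28 type I interferon-stimulated promoters (25.0%) and 5 of 28 G1/S promoters (17.9%). Among G2/M promoters 2 of 28 (7.14%) held it. By class of response, the share was thus higher among genes at least 4-fold higher than among genes at least 4-fold lower and uncalled genes. By list it did not follow the direction of change alone. The AP-1 site TGANTCA was present in 33 of the 245 (13.5%), in 2 of the 79 (2.53%) and in 475 of all 11304 (4.20%). The ISRE core was present in 8 of the 245 (3.27%) and in 283 of all (2.50%). In the whole table the consensus stood in 9.57% and the AP-1 site in 6.60% of 27305 promoters. These shares describe letters in a fixed window on both strands, and a promoter without a match may hold sites elsewhere.

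**Figure D5:**
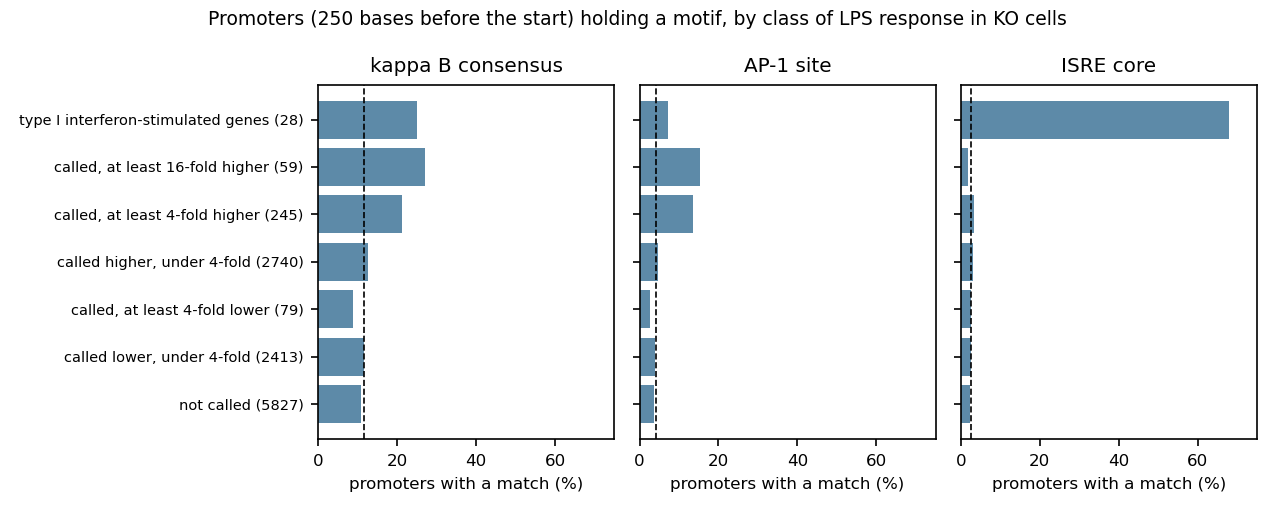
Share of promoters (horizontal axis, percent of the promoters in a class) holding the kappa B consensus, the AP-1 site or the ISRE core, by class of response to LPS in KO cells and for the type I interferon-stimulated list (number of promoters in brackets). The dashed line is the share over all 11304 matched promoters, and the bars of genes at least 4-fold higher pass it for the kappa B consensus (21.2%) and AP-1 (13.5%), while the ISRE bar stands out for the interferon-stimulated list (67.9%).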

How the data were processed

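Bulk RNA from 12 samples of induced microglia-like cells was sequenced. RNA extraction used TRIzol and library preparation a NEBNext Ultra RNA kit, per the labels. What the authors deposited is a single file of unnormalised read counts, with 1 column for each library. The submitters' processing notes name CASAVA 1.7, Cufflinks and the build GRCh38, without a role; the aligner, counter, strand setting and annotation are not given there or in the labels. Without strand, reads of overlapping genes cannot be told apart.

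From these counts edgeR 4.0.16 (limma 3.58.1, R 4.3.3) fitted 1 mean per group over all 12 libraries, which share the estimate of spread, after filterByExpr and TMM scaling. The quasi-likelihood test was robust, with Benjamini-Hochberg adjustment over 16022 genes and a threshold of 0.05. The interaction is the change with LPS in KO minus that in WT. Alternatives were DESeq2 1.42.0, other filters, scalings and libraries, a replicate block, glmTreat and a GC offset. The fit was tested on simulated data. Symbols, positions and GC content come from GENCODE, and promoters from RefSeq. Of 57992 gene IDs, 24552 had no count in any library. Levels against a group with no count use a floor of 3 counts in a library of that group, and changes against 1 to 3 counts are given as ratios with a 95% interval that covers counting error only. The comparison, its gene lists and tests were chosen with earlier results of these data known. Named genes are MEF2C, the largest changes by fold with groups that do not overlap, and the largest changes by level. They also include list members with the lowest adjusted p or the largest change in each direction, the largest interactions, and a fixed panel. Libraries given BMS265246 entered no comparison. Some genes that this rule or the marker lists cover are not reported here.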

Additional observations from a re-analysis of the deposited data

Results flagged for a closer look

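For 1919 genes the change with LPS differed between KO and WT cells, by the genotype by LPS interaction of edgeR's quasi-likelihood test (Benjamini-Hochberg adjusted p under 0.05). Values are the change in KO minus the change in WT, in log2 units. They depend on the starting level too, and a smaller rise can end at a higher level, as for CCL2 above. Among the genes named above, 60 had such a difference. Several, among them the large ones of PRR15 (1.76) and CEBPA (1.21), were lost when 1 library was left out, as listed in the part on processing below. Causes were not tested. The value of IBSP rests on 2 counts in the 3 WT libraries together and has no firm size.

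Genes that rose with LPS in KO cells, with a smaller rise than in WT, were IBSP (-3.23), DLL4 (-2.86), KCNJ15 (-2.84), VCAN (-1.84), CCL2 (-1.76), TNFAIP6 (-1.70), FPR2 (-1.59), CASP5 (-1.33) and S100A9 (-1.18). Smaller differences of this kind were those of IL10 (-1.05), TLR8 (-0.99), SPP1 (-0.91), LPL (-0.90), FPR1 (-0.82), GPR84 (-0.73), GBP2 (-0.67), SLC1A3 (-0.64) and CD44 (-0.64). Next came HIF1A (-0.63), CDKN1A (-0.59), SLC39A8 (-0.53), NAMPT (-0.49), KYNU (-0.41), CXCL8 (-0.38), HLA-DRA (-0.34) and SLAMF7 (-0.26). Genes that rose in KO cells, with a change above that in WT, were A4GALT (2.88), TNFSF15 (0.87), TNF (0.85), TNFAIP3 (0.72), NR1H3 (0.53), NFKBIA (0.47), C3 (0.45), P2RX7 (0.39) and CX3CR1 (0.30). Genes that fell in KO cells and fell less than in WT were KIF26B (1.78), PRR15 (1.76), CDKN1C (1.56), CEBPA (1.21), SLCO2B1 (0.89), FOS (0.82), AXL (0.82), OAS1 (0.77) and TNFSF14 (0.60). Smaller differences of this kind were those of MBP (0.60), HK3 (0.57), TGM2 (0.57), HPGDS (0.54), TREM2 (0.51), MRC1 (0.46), HERC5 (0.45), HLA-DMB (0.38) and MCM4 (0.36). Next came MEF2C (0.34), PECAM1 (0.33), FN1 (0.31) and CAT (0.27). Genes that fell in KO cells, with a change below that in WT, were MAF (-0.50) and PLAU (-0.38). Not called in KO cells, but with a called difference, was FOSB (2.43).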

How the results depend on the processing

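Counts of calls were remade with 1 choice changed at a time. With library size alone in place of TMM, 2196 genes were higher and 6401 lower, and NLRP3 changed sign (-0.027). Against a 1.5-fold change (glmTreat), which asks for larger effects by construction, 1834 genes were called, 1173 higher and 661 lower, and 82 interactions remained. Leaving out 1 library gave 6038 to 6699 calls, 3237 to 3684 higher and 2796 to 3086 lower, but 1162 to 3077 interactions, lowest without KO LPS replicate 2 and highest without KO LPS replicate 1. DESeq2 called 6373 genes. An offset for GC content, added after the data were seen, gave 3628 higher and 4404 lower. With the replicate number as a block 6561 genes and 1543 interactions were called. The labels do not say that equal numbers share a culture or day, and same-numbered libraries deviated together only weakly (correlations of 0.086 and 0.097), so pairing was not established. For the 131 genes named under the rule, 1653 values under other settings kept direction and call, 40 lost the call, 9 gained it and 1 changed sign. Of the values of their interactions 923 kept the call and 97 lost it. Outside glmTreat, those lost without at least 1 single library were the interactions of CAT, CEBPA, CX3CR1, CXCL8, FOS, HLA-DMB, PECAM1, PLAU, PRR15, SLAMF7 and TNFSF14. Of the list counts and medians, 1598 were the same under other settings and 274 moved. With 3 libraries against 2, an exact permutation test of a single gene cannot go below p = 0.1.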

Other observations

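Long noncoding RNAs were also among the genes changed at least 4-fold, and those below were chosen after their values were seen. MIR155HG, the host transcript of the inflammatory microRNA miR-155, went from 2.06, 2.01 and 1.396 to 9.41 and 8.405 CPM (log2 fold change 2.30 ± 0.19, adjusted p = 3.57e-10), and its rise was smaller in KO than in WT (interaction -1.34 ± 0.27, adjusted p = 0.00202). MIR3142HG, the host transcript of miR-146a, went from 2.84, 2.29 and 2.68 to 33.8 and 26.8 CPM (log2 fold change 3.54 ± 0.15, adjusted p = 1.24e-15). LUCAT1, an RNA that limits interferon and inflammatory genes in myeloid cells, went from 1.55, 1.56 and 1.503 to 15.4 and 13.5 CPM (log2 fold change 3.23 ± 0.27, adjusted p = 1.22e-09). The KO LPS libraries were higher without overlap in all 3. Of 1736 tested long noncoding RNAs 23.8% were called, against 49.6% of 13114 protein-coding genes. At least 4-fold, 61 of the 1736 were higher and 26 lower, against 302 and 89 of the 13114. These classes were not matched for level, on which calls depend.

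Among NF-kB genes not described above, and chosen after their values were seen, NFKB1 changed by 2.38 ± 0.06 and NFKB2 by 2.99 ± 0.09 in KO cells. BIRC3, an inhibitor of apoptosis that acts in TNF receptor signalling, changed by 4.38 ± 0.12 in KO and 3.03 ± 0.09 in WT (interaction 1.35 ± 0.15, adjusted p = 2.27e-06). TLR2, the receptor for bacterial lipoproteins, went from 338, 341 and 345 to 1153 and 1051 CPM (log2 fold change 1.69 ± 0.05, adjusted p = 2.46e-17).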
